A study of Mus musculus with 18 samples.

Results

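The comparison described here set immune cells of the artery wall that carried a fluorescent reporter of Cd11c alone (YFP) against cells that carried reporters of both Cd11c and Cx3cr1 (DP, double-positive). It rested on the 5 YFP and 4 DP libraries among the 18 RNA libraries of the series, taken by the names of the count columns, with the numbers 1, 3, 4, 5 and 6 for YFP and 1, 2, 4 and 5 for DP. All mice, male and female, were C57BL/6 animals of the genotype Apoe-/- Cx3cr1GFP Cd11cYFP, aged 7 months, with 5 months of Western diet behind them. Live CD45-positive cells of digested aortas and carotid arteries were sorted into YFP cells (YFP-positive, GFP-negative), DP cells (positive for both), GFP cells (GFP-positive alone, n = 6) and DN cells (negative for both, n = 3). Every group thus lacked Apoe and shared the diet. The labels give neither the number of animals behind a library, nor whether animals were pooled, nor whether the Cx3cr1GFP allele was carried on 1 or both chromosomes, nor what a library's number stands for. P-values therefore measure the spread between these libraries only.

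Cd11c is the protein of Itgax, an integrin subunit used to mark dendritic cells and also carried by macrophages that take up lipid in the artery wall. Cx3cr1 is the receptor of fractalkine and is found on monocytes and on many tissue macrophages. Foamy macrophages digest lipoproteins in lysosomes, which are acidified by the vacuolar proton pump, and many of the genes of lysosomes and of the pump carry the sequence CACGTG near their start, which is read by transcription factors of the MiT/TFE family.

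The lysosomal sites below are printed because all 28 lysosomal genes tested had a higher fitted mean in YFP. They are the places where CACGTG, in capitals, occurs in the 250 bases before a RefSeq start (assembly GRCm38.p6) of 2 cathepsin genes, 5′ to 3′ on the strand of the gene, with up to 12 bases on each side.
Ctsd, site 1: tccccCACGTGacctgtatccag
Ctsd, site 2: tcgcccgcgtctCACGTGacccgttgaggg
Ctsa, site 1: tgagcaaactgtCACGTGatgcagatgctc
CACGTG itself began 245 and 98 bases before the RefSeq start of Ctsd, and 12 bases before the second of 2 RefSeq starts listed for Ctsa. The sites as printed, with the bases on each side, span chr7:142388055-142388077 and chr7:142387908-142387937 for Ctsd (minus strand) and chr2:164833749-164833778 for Ctsa (plus strand). GENCODE vM21, the annotation used for gene positions here, starts both genes further upstream, at base 142388038 for Ctsd and 164832873 for Ctsa. By it the first Ctsd site lies outside the gene, while the second Ctsd site and the Ctsa site lie in exons annotated as untranslated in at least 1 transcript. A gene with several RefSeq starts was counted once, as holding the sequence if any of its stretches did. CACGTG, which reads the same on both strands and of which TCACGTGA is a longer form, was in such a stretch of 7 of 23 lysosomal genes (30.4%), 2 of 12 proton pump genes (16.7%) and 1854 of all 27025 genes with one (6.86%). TCACGTGA was in 3 of the 23 (13%), 1 of the 12 (8.33%) and 245 of all (0.907%). These are matches of letters, and no binding was measured. None of the 28 genes passed the test between YFP and DP. Their median log2 fold change of 0.70 was 0.04 without YFP 5 and -0.45 in the libraries numbered 1 and 2.

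The libraries were of unequal quality and several stood apart, which bears on each result that follows. Total counts ranged from 9790946 to 19436572 in DP and from 17776952 to 27742113 in YFP, apart from YFP 6 with 289166, in which 1 count stands for 2.99 CPM (read counts relative to a TMM-scaled library size). YFP 5 and the library labelled DP 5 held fewer kinds of transcript than the others: after thinning to 280000 counts they held 6809 and 7416 genes, against 10548 to 13178 in the other 7. Of the genes at 10 CPM or more in all other 8 libraries, 274 were under 1 CPM in YFP 5 alone and 384 in DP 5 alone, against 0 to 3 in the others. Detected genes differed between the subsets by less than their spread (means of 10889 in YFP and 11031 in DP, exact permutation test, two-sided, p = 0.929, smallest possible 0.0159). The difference was -142 genes at that depth, -2435 without thinning (exact permutation p = 0.222), and -2016 at 9700000 counts without YFP 6 (exact permutation p = 0.343, smallest possible 0.0286).

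Transcripts of the reporter genes did not follow the sort in every library. Cx3cr1 (mm10 chromosome 9, 119901616 to 120069879) stood at 0.930, 60.7, 60.0, 26.3 and 104 CPM in YFP 1, 3, 4, 5 and 6, and at 92.7, 118, 9.43 and 0.427 in the libraries labelled DP 1, 2, 4 and 5. The 6 GFP libraries, in which the sort also asked for the Cx3cr1 reporter, ranged from 80.9 to 165 CPM with a median of 142. DP 1 and 2 thus lay inside the GFP range and YFP 1 far below it, as their labels have it, while YFP 6 lay inside it and the libraries labelled DP 4 and DP 5 lay below every YFP library except YFP 1 (DP 5 lay below that one too).
Itgax (chromosome 7, 128129547 to 128150657) stood at 175, 380, 499, 1120 and 89.6 CPM in YFP 1, 3, 4, 5 and 6, and at 456, 311, 38.6 and 47.8 in the libraries labelled DP 1, 2, 4 and 5. Those labelled DP 4 and DP 5 were the lowest of the 9, although both were sorted as positive for the Cd11c reporter. The 6 GFP libraries, sorted as negative for that reporter, ranged from 107 to 191 CPM. YFP 1 lay inside that range and YFP 6, with 30 counts, below it. YFP 3, 4 and 5 and DP 1 and 2 lay above it. The fitted difference of YFP from DP was -0.17 ± 1.0 on the log2 scale for Cx3cr1 (SE, edgeR adjusted p = 1) and 1.09 ± 0.79 for Itgax (adjusted p = 0.978). The Itgax difference was 0.17 without YFP 5, 1.77 without DP 1, -1.04 in numbers 1 and 2 alone and 3.54 in numbers 3 to 6 alone. Outside the comparison, DN 3 and DN 6, sorted as negative for both reporters, held Cx3cr1 at 142 and 134 CPM and Itgax at 332 and 297. They are left out together with the libraries labelled DP 4 and DP 5 where that is said. Fluorescence follows a reporter protein, so the transcript is an indirect check of the sort. Cx3cr1 of YFP 3 and 4, at about 60 CPM, lay below the GFP range but well above YFP 1, although these libraries were sorted as negative for that reporter. Whether libraries were exchanged was not tested and none was relabelled, and an exchange would change what every difference of YFP from DP below stands for. Of the contrasts given here, that of YFP 1 with DP 1 and 2 (numbers 1 and 2) holds none of the libraries whose Cx3cr1 went against the sort. It has a single YFP library, whose Itgax lay inside the range of the GFP libraries.

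**Figure D1:**
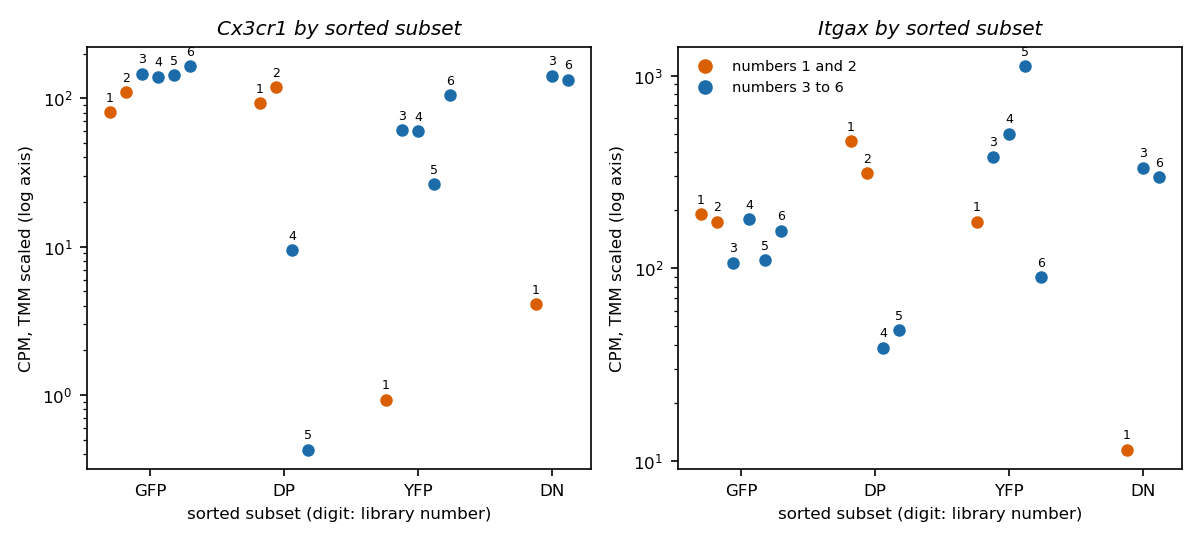
Cx3cr1 and Itgax in each of the 18 libraries, in TMM-scaled CPM on a log axis, by sorted subset; each point is 1 library, with its number beside it and its number set in colour. Cx3cr1 of YFP 6 (104 CPM) lies within the GFP range of 80.9 to 165, while the libraries labelled DP 4 and DP 5 lie at 9.43 and 0.427 CPM.

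No gene passed the test between YFP and DP. Of 17143 genes tested with edgeR's quasi-likelihood test, 0 (0%) had an adjusted p under 0.05, with a smallest adjusted p of 0.392. At an unadjusted p under 0.05, 517 genes (3.02%) were higher in YFP and 637 (3.72%) lower. This balance rested on YFP 5 and DP 5: it was 67 higher and 2101 lower without YFP 5, and 1145 higher and 207 lower without DP 5. The voom method of limma with sample weights also called 0 genes, while DESeq2, with its own size factors, called 118 (39 higher, 79 lower). The median log2 fold change over all genes was -0.09. In 63 genes (0.367%) every YFP library lay above every DP library, and in 73 (0.426%) every one lay below. These counts depended on scaling, with 34 and 79 under TMMwsp, a form of TMM that keeps genes at 0. Random labels on 5 and 4 libraries fully separate a gene, in either direction, at a rate of 0.0159. That rate is the smallest possible p of the exact permutation test above. The 63 and 73 genes together were a smaller share of those tested, so lack of overlap alone is no sign of a difference.

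The genes below were taken from those 136 by size of change, given an unadjusted p under 0.05 and a mean in the higher group of 20 CPM or more, and none passed the test. Lipid-handling and lysosomal genes of macrophages were the best measured among those higher in YFP. Gpnmb (chromosome 6, 49036546 to 49070929), a transmembrane glycoprotein of lysosomes and a marker of foamy macrophages, read 1379, 2290, 6122, 11780 and 1729 CPM in YFP 1, 3, 4, 5 and 6. In the libraries labelled DP 1, 2, 4 and 5 it read 855, 368, 719 and 690. The lowest YFP library lay above the highest DP library, and YFP 4 and YFP 5 stood above the rest. The fitted log2 difference was 2.82 ± 0.90 (SE, edgeR adjusted p = 0.476), and 1.75 without YFP 5.
Ctsk (chromosome 3, 95499256 to 95509362), the gene of cathepsin K, a protease that breaks down collagen and elastin, read 448, 438, 1385, 1782 and 152 CPM in YFP 1, 3, 4, 5 and 6 and 116, 110, 101 and 128 in the libraries labelled DP 1, 2, 4 and 5. The DP values were close together, and YFP 6 lay just above them. The log2 difference was 2.89 ± 0.79 (edgeR adjusted p = 0.392), and 2.04 without YFP 5.
Atp6v0d2 (chromosome 4, 19876841 to 19922605), a subunit of the proton pump found in osteoclasts and lipid-laden macrophages, read 222, 294, 727, 1310 and 110 CPM in the YFP libraries against 98.7, 85.3, 38.0 and 60.0 in DP. YFP 6 and DP 1 were again the closest pair. Its log2 difference was 2.92 ± 0.85 (edgeR adjusted p = 0.398), and 1.92 without YFP 5. Cd5l (chromosome 3, 87357881 to 87371073), a secreted protein of macrophages, read 128, 66.4, 343, 292 and 56.7 CPM in YFP and 20.6, 27.2, 13.8 and 19.3 in DP, with a log2 difference of 3.14 ± 0.90 (edgeR adjusted p = 0.392) that was 2.55 without YFP 5. Of the 15 genes named as higher and the 12 named as lower, 12 and 10 still separated the groups under RLE scaling and 11 and 9 under TMMwsp. Ctsk, Qpct and Nudt16l1 overlapped under both, Pafah1b3 and Vgll4 under RLE, and Atp6v0d2, Rbm43, Phkg2 and Nacc2 under TMMwsp.

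Ifi205 (chromosome 1, 174011998 to 174031810), an interferon-inducible gene of the p200 family that is high in cross-presenting dendritic cells, read 53.8, 46.2, 19.1, 58.0 and 35.8 CPM in YFP and 9.98, 8.22, 8.14 and 0.107 in DP. Its log2 difference of 2.69 ± 0.88 (edgeR adjusted p = 0.481) was the one that moved least without YFP 5 among these genes (2.43). Qpct, the gene of glutaminyl cyclase, which modifies the ends of secreted peptides and chemokines, read 24.8, 41.5, 79.4, 220.0 and 38.8 CPM in YFP and 10.6, 11.6, 21.7 and 22.5 in DP.
The other 9 genes of this choice were highest in YFP 5, and their values in YFP 6 rest on 2 to 11 counts. The endocytic lectin gene Cd209e read 132 CPM in YFP 5 and 0.756 to 9.17 in the other YFP libraries, the tight junction gene Ocln 169 against 3.72 to 20.9, and the receptor kinase gene Grk5 152 against 5.08 to 14.9. Rpusd1, Prss46, Iqcb1, Rbm43, Chchd4 and Pafah1b3 read 79.7 to 176 CPM in YFP 5 and less in the other YFP libraries. Of these, Prss46 still read 32.6 CPM in YFP 4 and Iqcb1 32.8 in YFP 6. Without YFP 5 the log2 difference of Grk5 was 1.02 in place of 3.41, and that of Chchd4 0.98 in place of 2.70.

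Ifitm1 (chromosome 7, 140967221 to 140969825), an interferon-inducible membrane protein that restricts viruses, had the largest difference among the genes of this choice that were lower in YFP. Some genes whose groups overlapped, such as Elane, had larger ones. It read 9.87, 12.0, 6.23, 9.27 and 17.9 CPM in YFP 1, 3, 4, 5 and 6 and 22.8, 38.4, 109 and 639 in the libraries labelled DP 1, 2, 4 and 5. All YFP values lay under all DP values, and the DP values differed widely. The log2 difference was -4.26 ± 0.91 (edgeR adjusted p = 0.392), and -2.45 without DP 5.
Dock8 (chromosome 19, 24999534 to 25202432), an activator of Cdc42 that migrating leukocytes need to keep their shape in tissue, read 128, 138.4, 93.0, 68.4 and 77.6 CPM in YFP and 301, 262, 138.5 and 140 in DP. DP 1 and 2 stood clear of YFP, while the libraries labelled DP 4 and DP 5 lay beside YFP 3. Its log2 difference was -1.05 ± 0.50 (edgeR adjusted p = 0.719). Fam53b read 20.9 to 32.2 CPM in YFP and 36.9 to 185 in DP. The 9 others were Vgll4, a cofactor of TEAD factors, the osteoblast factor gene Runx2, the kinase gene Sik2, the activin receptor gene Acvr2a, and Zc3h10, Rab6b, Phkg2, Nudt16l1 and Nacc2. In each the lowest YFP value was that of YFP 5 or YFP 6, such as 0.698 CPM of Acvr2a in YFP 5 while the remaining YFP values were 14.9 to 20.5 and the DP values 25.6 to 44.0.

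**Figure D2:**
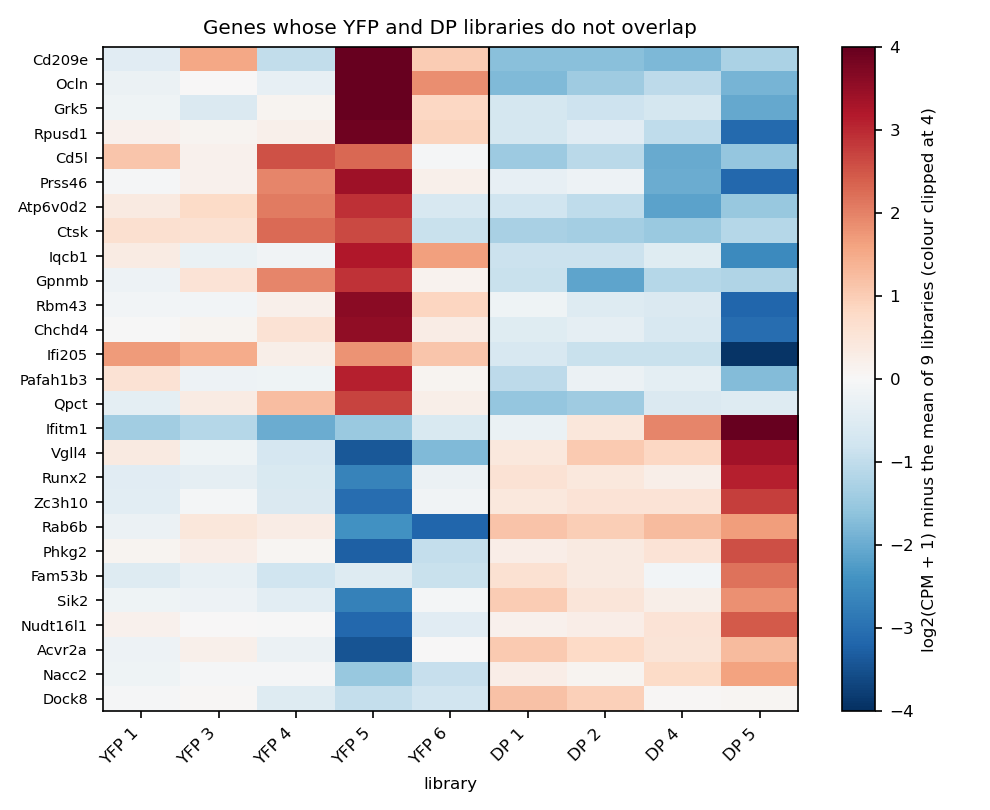
The 27 named genes whose YFP and DP libraries did not overlap, as log2(CPM + 1) minus the mean of the 9 libraries (rows genes, columns libraries, colour clipped at 4). Gpnmb, Ctsk, Atp6v0d2, Cd5l and Ifi205 are high in several YFP libraries, while Grk5, Chchd4 and others are high mainly in YFP 5.

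Genes of lipid-laden macrophages and of lysosomes had higher fitted means in YFP, without passing the test. Of 19 genes of foamy or TREM2-high macrophages, a list that holds Itgax, 17 were higher in YFP and 2 lower, where 45.6% of all genes tested were higher. The median log2 fold change was 1.21, 5 of the 19 were higher at an unadjusted p under 0.05, and 3 (Gpnmb, Cd5l and Atp6v0d2) did not overlap. Of all genes tested, 3.02% were higher at that p and 0.367% were higher without overlap. Lpl, the lipase that frees fatty acids from lipoproteins, read 922, 1730, 2937, 6404 and 660 CPM in YFP and 639, 730, 320 and 274 in DP, so that only YFP 6 lay within the DP range. The list median was 0.21 without YFP 5, 0.86 without YFP 5 and DP 5, and 1.96 without the libraries labelled DP 4 and DP 5 and DN 3 and 6.
All 28 lysosomal hydrolases and membrane proteins had a higher fitted mean in YFP, with a median of 0.70. Of them 4 were at an unadjusted p under 0.05 (3.02% of all genes) and 1 (Ctsk) did not overlap (0.367% of all genes). The per-library level of the list, as the mean of log2(CPM + 1), was 8.47, 9.39, 10.01, 10.76 and 9.12 in YFP 1, 3, 4, 5 and 6 and 9.05, 8.85, 8.38 and 8.41 in the libraries labelled DP 1, 2, 4 and 5. YFP 1 lay within the DP range and the other 4 above it. The median was 0.04 without YFP 5 and -0.45 within numbers 1 and 2. Acp5, the tartrate-resistant acid phosphatase, read 127, 478, 496, 1632 and 188 CPM in YFP and 217, 142, 93.5 and 98.1 in DP. Ctsl, the gene of cathepsin L, read 1042, 1216, 3307, 8476 and 720 in YFP and 452, 362, 498 and 1266 in DP.
Of the 2 genes with printed sites, Ctsd read 3113, 6107, 14080, 20650 and 5762 CPM in YFP and 4871, 3501, 3458 and 4503 in DP (log2 difference 1.28 ± 0.66, edgeR adjusted p = 0.778). Ctsa read 735, 1751, 2443, 3861 and 1514 in YFP and 1597, 1431, 672 and 1443 in DP (0.68 ± 0.58, adjusted p = 1). Both were lowest of the YFP libraries in YFP 1 and highest in YFP 5.

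Proton pump subunits were higher in 13 of 16, with a median of 0.50 that was -0.03 without YFP 5. Atp6v1h, the regulatory H subunit, read 81.8, 180, 243, 535 and 164 CPM in YFP and 91.8, 66.0, 80.7 and 21.1 in DP, with only YFP 1 inside the DP range. Genes of cholesterol efflux and storage were higher in 10 of 14, with a median of 0.73 that was -0.17 without YFP 5. Nr1h3, the oxysterol receptor LXR alpha that switches on efflux genes, read 24.2, 36.5, 46.2, 121 and 26.9 CPM in YFP and 24.0, 19.3, 18.1 and 10.3 in DP, without overlap and with YFP 1 and DP 1 almost level. Apoe, the gene that the mice lack, still gave 17.2 to 208 CPM in YFP and 1.81 to 24.7 in DP, with the highest value in YFP 5.
Receptors of lipoprotein uptake were higher in 4 of 11 and lower in 7 (median -0.05). The scavenger receptor gene Msr1 read 104, 241, 375, 1511 and 194 CPM in YFP against 116, 105, 73.9 and 296 in DP, and the oxidised LDL receptor gene Olr1 read 0.685, 26.0, 25.8, 1.30 and 20.9 against 19.9, 12.8, 146 and 135. In Olr1 the libraries labelled DP 4 and DP 5 stood apart from all others. Genes of cholesterol synthesis were lower in 12 of 17 (median -0.35), and the lowest list levels were those of YFP 5 (2.0) and DP 5 (3.02), the libraries with the fewest detected genes, against 3.66 to 4.41 in the others. Idi1, of the mevalonate pathway, read 0.499 CPM in YFP 5 and 169 in the library labelled DP 5, against 8.96 to 21.8 in the other 7.

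Among dendritic cell lists that of cDC1 had the largest median. Genes of cDC1 cells, the dendritic cells that cross-present antigen, had higher fitted means in YFP in 12 of 12, with a median of 1.37. Of them 5 were at an unadjusted p under 0.05, where 3.02% of all genes were higher. Itgae, the CD103 integrin subunit, read 63.5, 66.7, 3.21, 57.2 and 5.97 CPM in YFP 1, 3, 4, 5 and 6 and 6.32, 6.10, 8.06 and 0.853 in the libraries labelled DP 1, 2, 4 and 5. YFP 1, 3 and 5 were about level with each other and above DP, and YFP 4 and 6 lay within the DP range. The septin gene Sept3 read 23.5, 26.2, 2.83, 123 and 2.98 in YFP and 3.41, 2.93, 0.125 and 0.213 in DP, high in the same 3 YFP libraries.
The cDC1 list kept a positive median in numbers 1 and 2 (0.86), in numbers 3 to 6 (2.63), without YFP 5 (0.81), without YFP 5 and DP 5 (1.12) and without YFP 5 and 6 and DP 4 and 5 (1.11). It was 1 of 8 lists with a positive median in both number sets. The level of the list was 5.95, 6.25, 4.63, 5.45 and 4.23 in YFP 1, 3, 4, 5 and 6. It was 4.64 and 4.62 in DP 1 and 2 and 3.21 and 3.09 in the libraries labelled DP 4 and DP 5. YFP 4 and 6 thus lay within the DP range, and neither lay above DP 1. Clec9a, a defining receptor of these cells, was at 22.9 and 14.7 CPM in YFP 1 and 3 and at 0 to 2.36 CPM in the other 7 libraries, while Xcr1, another, was at 40.1, 48.7 and 11.3 in YFP 1, 3 and 4 and at 57.9 in the library labelled DP 5.
Genes of cDC2 cells were higher in 9 of 12 with a median of 0.14, and genes of mature dendritic cells in 6 of 12 with a median of -0.01. Il12b, a subunit of interleukin 12 and 23 made by mature dendritic cells, read 142, 214, 63.9, 0.399 and 5.97 CPM in YFP and 37.0, 15.5, 0.498 and 0.107 in DP. Genes of antigen presentation on MHC class II were higher in 10 of 11 with a median of 0.94, which was 0.05 without YFP 5 and -0.32 in numbers 1 and 2. H2-DMb1, which helps to load peptides, read 153, 343, 228, 759 and 161 CPM in YFP and 171, 243, 27 and 104 in DP, and the protease gene Ctss 1621, 4270, 7945, 22830 and 3851 in YFP and 2195, 2425, 901 and 3893 in DP. The library labelled DP 4 held the lowest value of both.

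The 9 libraries all held transcripts of macrophages, with list levels of macrophage identity from 8.22 in YFP 1 and 8.64 in the library labelled DP 4 to 11.28 in YFP 5. Of 13 such genes 10 were higher in YFP (median 0.53), and the median was -0.56 without YFP 5 and -1.52 in numbers 1 and 2. In bulk samples fewer cells of a type and less RNA per cell cannot be told apart. Genes of resident vascular macrophages were lower in 16 of 17 (median -0.71), but their level was 5.90 to 7.86 in YFP, 5.21 and 5.52 in DP 1 and 2, and 7.24 and 9.43 in the libraries labelled DP 4 and DP 5. Every YFP library lay above DP 1 and 2 and below the library labelled DP 5. Without the libraries labelled DP 4 and DP 5 and DN 3 and 6 the median was 2.34, and without DP 5 alone it was 0.70. Lyve1, a hyaluronan receptor of perivascular macrophages, followed that order with 28.5 to 131 CPM in YFP, 6.41 and 11.6 in DP 1 and 2, and 228 and 1099 in those labelled DP 4 and DP 5. Stab1, a scavenger receptor of the same cells, did not: it read 831 and 552 CPM in DP 1 and 2, 191 and 73.7 in the libraries labelled DP 4 and DP 5, and 34.3 to 258 in YFP.
Genes of classical monocytes were lower in 9 of 12 (median -0.95) and turned to 1.67 without the libraries labelled DP 4 and DP 5 and DN 3 and 6, with -0.08 without DP 5 alone. Hp, the gene of haptoglobin, read 5.61, 21.1, 31.7, 3.19 and 35.8 CPM in YFP and 12.2, 6.59, 91.3 and 616 in DP, and Plac8 52.3, 27.9, 7.43, 80.9 and 95.5 in YFP and 7.90, 9.44, 157 and 1850 in DP. In both genes the libraries labelled DP 4 and DP 5 were the highest of the 9, and DP 1 and 2 were among the lowest.

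Lists of movement and inflammation had medians between -0.09 and 0.48. Actin assembly and motility genes were higher in 14 of 27 and lower in 13 (median 0.02, which was -0.81 without YFP 5 and 0.49 without DP 5). Dock8 was the one that did not overlap, where 0.426% of all genes were lower without overlap. Myh9, the non-muscle myosin heavy chain, read 178, 137, 92.2, 183 and 68.7 CPM in YFP and 424, 357, 142 and 170 in DP, and DP 1 and 2 were the 2 highest. Chemokine ligands were higher in 11 of 22 (median 0.03, and -0.33 without YFP 5), chemokine receptors in 7 of 16 (median -0.06) and integrins in 15 of 21 (median 0.10). Cxcl1, which draws neutrophils, read 731, 1528, 1227, 1396 and 812 CPM in YFP and 528, 733, 244 and 190 in DP, where only YFP 1 lay below the highest DP library.
Matrix metalloproteinases and their inhibitors were higher in 6 of 16 (median -0.09). Mmp13, a collagenase, read 7.22, 222, 231, 266 and 41.8 CPM in YFP and 30.2, 22.6, 1.87 and 2.13 in DP, and Mmp12, the macrophage elastase, 1539, 3102, 5984, 8941 and 752 in YFP and 977, 1010, 168 and 1024 in DP. Mmp9, a gelatinase that neutrophils also store, read 0.997 to 53.2 in YFP, 5.07 and 6.10 in DP 1 and 2, and 320 and 483 in the libraries labelled DP 4 and DP 5. Mmp13 and Mmp12 were thus highest in YFP 3, 4 and 5, and Mmp9 in the libraries labelled DP 4 and DP 5.
Inflammasome and cytokine genes were higher in 13 of 18 (median 0.48), with a median of -0.38 both without YFP 5 and in numbers 1 and 2. Il10, an anti-inflammatory cytokine, read 40.0, 267, 230, 130 and 110 CPM in YFP and 67.3, 74.8, 13.4 and 0.960 in DP, and Il23a 13, 10.8, 9.38, 0.997 and 14.9 in YFP and 4.41, 3.17, 1.21 and 0.427 in DP. Type I interferon response genes were higher in 13 of 25 (median 0.11, and -0.27 without YFP 5). Oas2, a sensor of double-stranded RNA, was the one that did not overlap, at 24.6 to 50.8 CPM in YFP and 55.3 to 88.1 in DP (0.426% of all genes were lower without overlap). Proliferation genes were higher in 17 of 24 (median 0.58), with a median of 0 without YFP 5, -0.23 without YFP 5 and DP 5, and -0.30 in numbers 1 and 2. Of these genes Ube2c read 306 CPM in YFP 5 against 5.97 to 23.0 in the other YFP libraries. Oxidative phosphorylation (9 of 26 higher, median -0.07), glycolysis (8 of 17, -0.02), alternative activation (8 of 17, -0.02), nonclassical monocyte (3 of 13, -0.23) and tissue dissociation genes (5 of 20, -0.24) had medians near that of all genes or below it. For oxidative phosphorylation the small median lay between -1.54 without YFP 5 and 1.52 without DP 5, and for glycolysis between -0.58 and 0.39. Slc16a3, a lactate exporter, read 19.9 to 95.8 CPM in YFP, 69.1 and 67.7 in DP 1 and 2, and 302 and 480 in the libraries labelled DP 4 and DP 5.

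**Figure D3:**
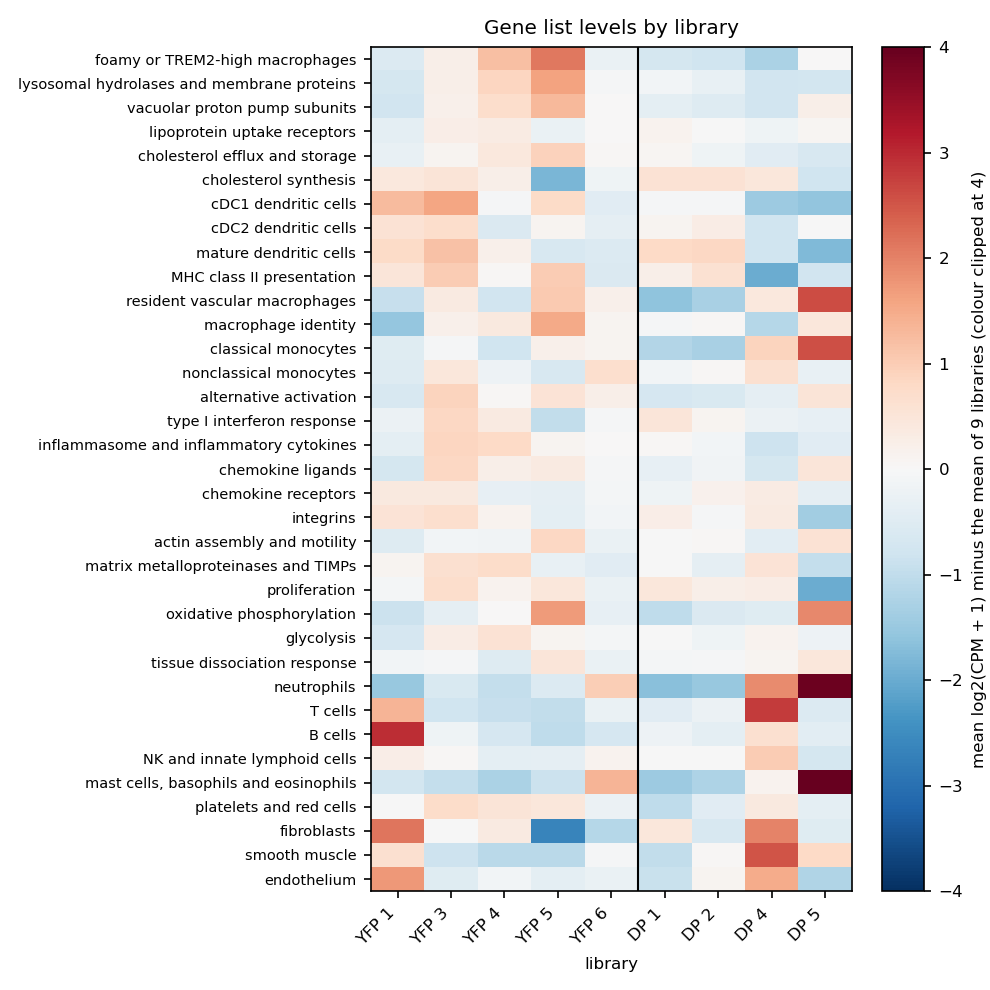
Level of each gene list in each library, as the mean log2(CPM + 1) of its matched members, tested or not, minus the mean of the 9 libraries (rows lists, columns libraries, colour clipped at 4). The neutrophil list stands at 5.73 and 7.77 in the libraries labelled DP 4 and DP 5 against 2.18 to 4.82 in the others, and the B cell list at 5.43 in YFP 1.

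Markers of other cells were spread unevenly over the libraries, and their part in the results above was not tested. The neutrophil list was lower in YFP in 13 of 14 genes (median -4.83), 9 of them at an unadjusted p under 0.05, where 3.72% of all genes were lower. Its levels were 2.31 to 4.82 in YFP, 2.18 and 2.33 in DP 1 and 2, and 5.73 and 7.77 in the libraries labelled DP 4 and DP 5. Elane, the elastase gene of neutrophil precursors, read 156 CPM in the library labelled DP 4 and 0 to 1.55 in all others. The list of mast cells, basophils and eosinophils was lower in 16 of 16 (median -5.55), at 7.34 in the library labelled DP 5, 3.68 in YFP 6, 2.47 in DP 4 and 0.89 to 1.60 in the other 6. Ccr3, the eotaxin receptor, read 1.30 to 20.9 CPM in YFP, 1.5 and 2.2 in DP 1 and 2, and 268 and 309 in the libraries labelled DP 4 and DP 5. Without those 2 libraries and DN 3 and 6 the medians of these lists were 1.75 and 3.24, and without DP 5 alone -0.97 and 0.39.
The T cell list was lower in 13 of 14 (median -1.62) and was at 4.63 in the library labelled DP 4, 3.20 in YFP 1 and 0.87 to 1.62 in the others, with Tcf7, a factor of naive T cells, at 23.1 CPM in DP 4 and 0.299 to 8.96 elsewhere. Nkg7, of cytotoxic granules, read 59.1 and 30.8 CPM in the libraries labelled DP 4 and DP 5 and 0.299 to 4.11 in the others, while the list of NK and innate lymphoid cells was higher in 6 of 12. The B cell list was higher in 8 of 11 (median 1.4), at 5.43 in YFP 1 and 1.47 to 3.12 in the others. Its median was 3.65 in numbers 1 and 2 and -2.06 in numbers 3 to 6. Cd22, a B cell receptor inhibitor, read 154, 51.9, 64.2, 1.20 and 11.9 CPM in YFP and 37.5, 27.3, 12.6 and 1.39 in DP, highest in YFP 1.
The fibroblast and endothelium lists were highest in YFP 1 and the library labelled DP 4: fibroblasts at 8.20 and 8.03 against 3.40 to 6.51 in the other 7, and endothelium at 4.01 and 3.76 against 1.08 to 2.39. Smooth muscle stood at 6.07 in DP 4 against 2.46 to 4.35 elsewhere. Tagln, a contractile protein gene, read 1.10 to 53.1 CPM in YFP, 11.5 and 47.3 in DP 1 and 2, and 332 and 744 in the libraries labelled DP 4 and DP 5, and Acta2, smooth muscle actin, 58.5 to 290 in YFP, 38.1 and 156 in DP 1 and 2, and 1104 and 1823 in those 2. Fibroblast genes were lower in 9 of 15 (median -0.25), smooth muscle genes in 11 of 13 (median -1.61), and endothelial genes higher in 10 of 15 (median 0.52), among them Nos3, at 207 CPM in YFP 5 and 0.213 to 33.0 in the others. In numbers 1 and 2 the fibroblast, smooth muscle and endothelial medians were 2.16, 1.24 and 2.88, and in numbers 3 to 6 they were -1.74, -3.14 and -1.17. Platelet and red cell genes were higher in 8 of 10 (median 1.34), such as Gp1bb, a platelet receptor subunit, with 0 to 63.3 CPM in YFP and 0.249 to 2.74 in DP.

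The numbers of the libraries split the comparison. Libraries numbered 1 and 2 (YFP 1 against DP 1 and 2) and those numbered 3 to 6 (YFP 3, 4, 5 and 6 against the libraries labelled DP 4 and DP 5) gave list medians of opposite sign in 23 of 35 lists and of the same sign in 12 (8 higher, 4 lower in YFP). Within numbers 1 and 2 Cx3cr1 was lower in YFP, by a log2 fold change of -6.71, and within numbers 3 to 6 it was higher by 3.6. The foamy macrophage median was 0.10 in the first set and 1.51 in the second, and the MHC class II median -0.32 and 1.97. Resident macrophage genes had a median of 0.87 in the first and -1.36 in the second, and T cell genes 2.54 and -4.30. The first set holds a single YFP library, so its spread was taken from the other subsets.

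**Figure D4:**
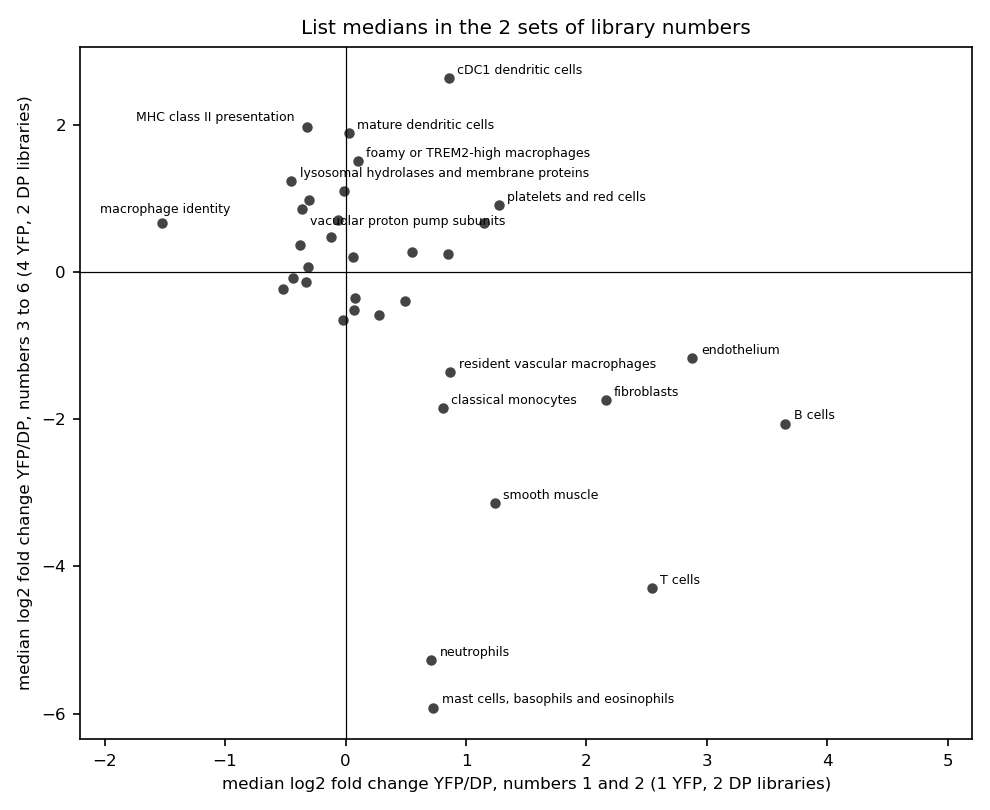
Median log2 fold change of YFP over DP of each of 35 gene lists, in libraries numbered 1 and 2 (horizontal axis) and 3 to 6 (vertical axis); each point is a list. Points to the upper left and lower right of the crossing lines, 23 of 35, changed sign between the sets.

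The difference between the sets was tested for each gene as an interaction, and 11 of 17143 genes (0.0642%) passed at an adjusted p under 0.05 (6 higher and 5 lower in YFP relative to DP in numbers 3 to 6). At an unadjusted p under 0.05 there were 1477. Described here are, of the 6, the dendritic and B cell activation gene Cd83, the scavenger chemokine gene Cxcl16, Cx3cr1, the inhibitory receptor gene Cd72, and Rasgef1b. The interaction test was chosen after the data, with the Cx3cr1 values, had been seen, and its first set holds a single YFP library.
Cd83 read 1901 CPM in YFP 1 and 6264 and 5349 in DP 1 and 2, but 8095, 6737, 6365 and 5317 in YFP 3, 4, 5 and 6 and 983 and 621 in the libraries labelled DP 4 and DP 5. Its change of difference was 4.66 on the log2 scale (edgeR adjusted p = 0.0131). Cxcl16 had the same order, at 524 in YFP 1, 2137 and 1762 in DP 1 and 2, 1251 to 2358 in YFP 3 to 6, and 241 and 391 in those labelled DP 4 and DP 5 (4.45, edgeR adjusted p = 0.047). In CPM, YFP 1 lay nearer in both genes to the libraries labelled DP 4 and DP 5 than to YFP 3 to 6. YFP 3 to 6 lay nearer to DP 1 and 2 than to those labelled DP 4 and DP 5. An interaction picks genes with such a crossed order, so the order is no separate result.
The 5 on the other side were Slpi, a secreted inhibitor of proteases, the small GTPase gene Gimap6, the septin gene Sept1, the carboxypeptidase gene Cpe and Dcn, the gene of the matrix protein decorin. Slpi read 259 CPM in YFP 1, 16.6 and 8.71 in DP 1 and 2, 20.4 to 125 in YFP 3 to 6, and 270 and 3298 in the libraries labelled DP 4 and DP 5 (-9.46, edgeR adjusted p = 0.0131). Dcn read 2260 in YFP 1, 404 and 226 in DP 1 and 2, 245 to 1151 in YFP 3 to 6, and 3674 and 4439 in those labelled DP 4 and DP 5 (-5.62, edgeR adjusted p = 0.049). The number of genes that passed rested on single libraries, from 0 without DP 1 or without DP 2 to 231 without YFP 5 and 1485 without DP 4. It was 2 with RLE scaling.

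**Figure D5:**
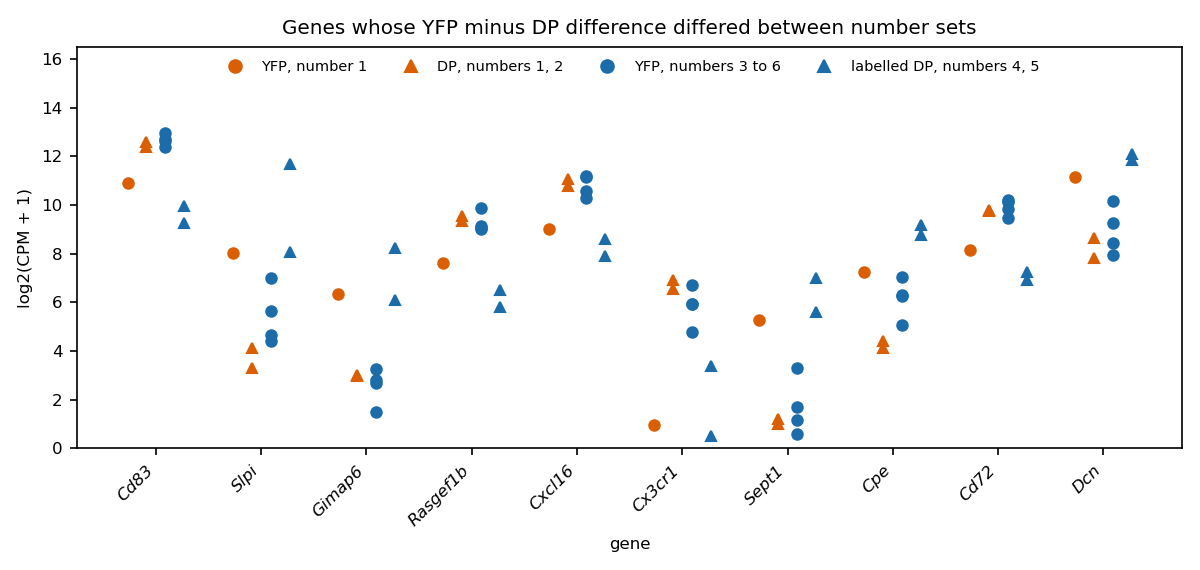
Of the genes whose YFP minus DP difference differed between the number sets, the 10 described here, as log2(CPM + 1); circles are YFP and triangles DP libraries, orange numbers 1 and 2, blue numbers 3 to 6. In each gene YFP 1 and the libraries labelled DP 4 and DP 5 lie on one side and DP 1 and 2 lie on the other, such as Cd83 at 1901, 983 and 621 CPM against 6264 and 5349. The choice of genes by the interaction favours this order.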

How the data were processed

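RNA of sorted cells was made into libraries with SMART-seq v4 and Nextera XT kits, per the labels' protocols. TopHat 1.4.1, SAMtools, HTSeq 0.7.1 and build mm10 are named in the submitters' processing notes; no annotation or strand setting is given in the sources used here, and overlapping and antisense genes cannot be told apart and near-identical copies, such as the Ear genes, are uncertain. The authors deposited whole-number read counts for 23337 gene symbols, not normalized, used as they stood. All 18 libraries were fitted in edgeR 4.0.16 (R 4.3.3) with filterByExpr, TMM scaling, 1 mean per subset and the robust quasi-likelihood test of YFP minus DP, adjusted by Benjamini-Hochberg over 17143 genes; the common dispersion was 0.89. The fit was tested on simulated data. CPM uses TMM-scaled library sizes, list levels use a pseudocount of 1, and reads carry no molecular identifiers. Coordinates are GENCODE vM21 (mm10), matched by symbol for 15468 of the genes tested and all 70 genes refitted under the alternatives.

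Genes were named by a rule: Cx3cr1 and Itgax; up to 15 per direction past the threshold or, failing that, by size of change at an unadjusted p under 0.05, 20 CPM or more in the higher subset and groups that did not overlap (35 candidates higher, 14 lower); and up to 3 of each list by smallest p. Ctsd, Ctsa, Clec9a and Xcr1 and the genes of the number-set test were named after their values were seen. Predicted genes and receptor segments were skipped, and 1 gene of the number-set test is not reported here. Members and the 36 lists (613 entries, 584 matched; the mitochondrially encoded list matched 0) were chosen with earlier results of these data known. Same-numbered YFP and DP libraries had correlated deviations (0.164, 0.169 and 0.342 for numbers 1, 4 and 5), but so did others (0.386 for YFP 3 with DP 1). Libraries within a subset differed by more than sampling noise (lowest chi-square over degrees of freedom, 16.38). Alternatives were DESeq2 1.42.0, limma 3.58.1 voom, other scalings, no filter, fewer samples, number terms and left-out libraries.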

Additional observations from a re-analysis of the deposited data

Results flagged for a closer look

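Some single libraries lay far from the others of their subset by a gap test at the 95% level, which chance alone meets in about 1 in 20 groups. Among list levels these were the B cell list (5.43) and the endothelium list (4.01) in YFP 1, the list of mast cells, basophils and eosinophils in YFP 6 (3.68), the T cell list in the library labelled DP 4 (4.63), and the cholesterol synthesis (3.02) and proliferation (2.01) lists in the library labelled DP 5. Among the named genes, on the log2(CPM + 1) scale, YFP 5 stood apart as the highest YFP library for Rpusd1 (7.00), Rbm43 (7.19), Chchd4 (7.47) and Pafah1b3 (6.33). It was the lowest for Runx2 (0.38), Zc3h10 (0.76), Sik2 (1.07), Nudt16l1 (1.0) and Acvr2a (0.76). The library labelled DP 5 stood apart as the lowest DP library for Grk5 (1.12), Rbm43 (0.40), Chchd4 (0.89) and Ifi205 (0.15) and as the highest for Runx2 (6.14), Zc3h10 (6.58) and Phkg2 (6.34). Of these 16 flags of named genes all were in YFP 5 or DP 5, the libraries with the fewest detected genes at equal depth. These genes were named by size of change and by the mean of the higher group. A single extreme library could thus bring a gene in, and the count of flags is no separate result.

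The difference of YFP from DP itself differed between libraries numbered 3 to 6 and those numbered 1 and 2 by an interaction term in edgeR, for the following 10 genes. The change of the log2 difference was 4.66 for Cd83, 4.97 for Rasgef1b, 4.45 for Cxcl16, 10.44 for Cx3cr1 and 4.47 for Cd72. It was -9.46 for Slpi, -8.64 for Gimap6, -10.44 for Sept1, -5.68 for Cpe and -5.62 for Dcn. The first number set holds 1 YFP library, and the second holds the libraries labelled DP 4 and DP 5, whose reporter transcripts go against their labels, and YFP 3, 4 and 6, sorted as negative for the Cx3cr1 reporter, with Cx3cr1 at 60.7, 60.0 and 104 CPM.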

How the results depend on the processing

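The count of 0 genes between YFP and DP was also 0 under voom, RLE, TMMwsp, no filter, only YFP and DP libraries, a number-set term, and without each library in turn. With the replicate number as a replicate block it was 0 as well, with 414 genes at an unadjusted p under 0.05 in place of 1154. DESeq2 called 118, numbers 1 and 2 alone 1496 (the lone YFP library is assumed to vary like the other subsets) and numbers 3 to 6 alone 9. Genes at an unadjusted p under 0.05 were 2777 by voom, 740 with YFP and DP libraries only, 3290 in numbers 1 and 2, 635 without DP 4, DP 5, DN 3 and DN 6, 312 without YFP 5 and DP 5, 411 without YFP 5, YFP 6, DP 4 and DP 5, and 1051 to 2269 without single libraries (2269 without YFP 1, 2168 without YFP 5). Genes whose groups did not overlap were 12377 in numbers 1 and 2, 1995 in numbers 3 to 6, and 2169, 591 and 3777 without those 3 sets of libraries in the same order, and 135 to 986 without single libraries, where fewer libraries must separate. The number-set count of 11 was 2 with RLE scaling and 0 to 1485 without single libraries. Detected genes differed by -1347 to 878 without single libraries. Leaving out YFP 5 and DP 5, or YFP 5, YFP 6, DP 4 and DP 5, and the number-set test were chosen after seeing the data.

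Some log2 differences turned sign. In numbers 1 and 2 alone they were -1.04 for Itgax, -0.40 for Acp5, -0.40 for Ctss, -0.18 for Atp6v1b2, -0.32 for H2-DMb1, -0.72 for Il10, -1.77 for Mmp13, -0.94 for Ctsa, -0.33 for Ctsd, 0.05 for Nudt16l1, 0.18 for Idi1, 2.70 for Plac8, 1.82 for Lyve1, 0.91 for Mmp9, 1.69 for Ccr3, 1.22 for Nkg7, 0.99 for Tagln and 1.51 for Acta2. In numbers 3 to 6 alone they were 3.6 for Cx3cr1 and 0.40 for Stab1. Without DP 4, DP 5, DN 3 and DN 6 they were 0.72 for Hp, 2.59 for Plac8, 2.66 for Lyve1, 1.80 for Mmp9, 1.89 for Ccr3 and 0.71 for Acta2. Without YFP 5, YFP 6, DP 4 and DP 5 they were -0.08 for Itgax, -0.02 for Apoe, 0.33 for Idi1, 1.10 for Hp, 1.77 for Plac8, 2.87 for Lyve1, 2.27 for Mmp9, 2.02 for Ccr3, 0.06 for Nkg7, 0.37 for Acta2 and 0.16 for Olr1. By voom they were 0.20 for Idi1, 0.89 for Hp, 0.60 for Plac8, 2.28 for Lyve1, 1.56 for Mmp9 and 1.17 for Ccr3. Without single libraries Cx3cr1 ranged from -0.78 to 0.53, Itgax from 0.17 to 1.77 and Ctsa from -0.08 to 0.80. The cause was not tested. List medians turned sign in 23 of 35 lists in numbers 1 and 2, 6 in numbers 3 to 6, 15 without DP 4, DP 5, DN 3 and DN 6, 9 under the block and 14 by voom. With 1 count at 2.99 CPM in YFP 6, values under 8.96 CPM there rest on 3 counts or fewer.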

Other observations

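Transcripts of mast cells and granulocytes that were abundant in the library labelled DP 5 were also read in YFP 6. Of 16 genes at 1000 CPM or more in DP 5 and at least 10-fold above the other 8 libraries, YFP 6 was the second highest for 7, and its level was 1.87% to 5.16% of that in DP 5 (median 2.73%). The choice of genes holds that share under 10%. Over all 118 genes at 20 CPM or more in DP 5 and at least 10-fold above the others, the second highest library was DP 4 for 35 and YFP 6 for 30. YFP 6 had 289166 counts against 17601365 in DP 5.

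Some genes of plasma cells and B cells were far higher in YFP 1 than elsewhere. The immunoglobulin joining chain gene Igj stood at 1750 CPM there and at 19.2 at most in the other 8 libraries, and the B cell coactivator gene Pou2af1 at 76.1 and 3.70. In YFP 4 the bone matrix gene Ibsp stood at 159 CPM against 5.97 at most elsewhere. These genes were chosen after their values were seen.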
